A study of Mus with 51 samples.

Results

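The genes described here are the zinc finger genes with a numbered Zfp symbol that were present in resting CD4 T cells. They were selected on measured levels. The count table had 363 rows with a symbol made of Zfp and a number (Zfp36 left out). Of these, 225 had a mean of at least 5 CPM (counts scaled to a common library total) over the 8 NP libraries, out of 34923 rows in all. The cells were lymph node T cells of 5C.C7 mice, which are B10.A mice without Rag2 that carry transgenic T cell receptor chains, so that the receptor of their T cells recognizes a peptide of moth cytochrome c (MCC). RNA was sequenced from 6 sorting phenotypes at 1, 6 and 24 h. CD69-high cells came from cells given MCC and GP (MCC+GP CD69-hi) or MCC (MCC CD69-hi), and CD69-low cells from the same 2 (MCC+GP CD69-lo and MCC CD69-lo). The others were given the peptide named GP alone or no peptide (NP). CD69 is a membrane protein that T cells display soon after their receptor is engaged. All groups share the strain, the transgenic receptor and the lack of Rag2, and the sources used here do not say whether libraries of a group came from separate mice, so p-values measure the spread between libraries, which may be technical. The 18 groups held 3 libraries each, except that MCC CD69-lo, GP and NP had 2 at 6 h.

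Most Zfp genes encode proteins with a row of C2H2 zinc fingers that read DNA sequence. Many of them also carry a KRAB domain, which recruits the corepressor KAP1 (gene Trim28) and, through it, the histone methyltransferase SETDB1 and heterochromatin proteins, and they are best known for silencing transposable elements and for keeping imprints. The family is among the fastest growing in mammals, and its genes stand in tandem clusters of near-identical copies, so reads of close paralogs may have been split or lost in counting and the level of a single clustered gene is uncertain. A smaller number of Zfp genes encode unrelated proteins of RNA, ribosomes or ubiquitin ligation that share the name and a zinc finger.

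Because the NP libraries chose the members, NP values are given as a description and no contrast with NP was tested. The tested contrasts use only the other 43 libraries. They set MCC+GP CD69-hi against GP and MCC+GP CD69-lo against GP at the same time, and MCC CD69-hi against MCC CD69-lo. They also set the times of MCC CD69-hi and of GP against each other, and both kinds of CD69-high cells against each other over all times, with MCC+GP as the first. Contrasts against GP share GP libraries with each other and with GP over time, and the sort within MCC shares its CD69-high libraries with MCC CD69-hi over time. Levels are CPM scaled with TMM factors (TMM CPM). Leaving out the NP libraries does not remove the choice, because GP cells had levels close to NP. The members summed to 8817 TMM CPM in GP and 8849 in NP cells at 1 h, and to 9597 and 9746 at 24 h. A choice on NP levels thus also favours genes high in GP, and with them falls against GP. A change is the log2 fold change of the first group over the second with its SE. A gene was called when its Benjamini-Hochberg adjusted p over all 17211 genes tested by edgeR's quasi-likelihood F test was below 0.05. All 225 members passed the filter on low counts.

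Libraries held 29030 to 10278776 counts with a median of 5436653, those of MCC+GP CD69-hi at 1 h held 930161 to 1105292, and the 3 of MCC+GP CD69-lo cells at 24 h held 29030 to 301455, which leaves most members there with few counts. The defining T cell genes (10 of 10 detected in every group) summed to 11470 ± 1952 CPM in MCC+GP CD69-hi and 12360 ± 812 CPM in GP cells at 1 h, and to 7871 ± 61.5 CPM in MCC+GP CD69-hi and 12490 ± 217 CPM in GP cells at 24 h (SD, n = 3 each). At 6 h they summed to 11350 ± 756 CPM in MCC+GP CD69-hi cells (n = 3) and to 10130 and 12520 CPM in the GP libraries. Of these 10 genes, 5 were lower and 1 higher in MCC+GP CD69-hi than in GP cells at 1 h, and 6 lower and 1 higher at both 6 and 24 h. A list of 10 B cell genes, none of which was at 0 in any group, summed to 983 to 1877 CPM in MCC+GP CD69-hi and 174 to 311 CPM in GP libraries at 1 h. It summed to 429 to 959 CPM in MCC+GP CD69-hi and 147 to 241 CPM in GP libraries at 6 h, and to 13.6 to 87.2 CPM in MCC+GP CD69-hi and 108.0 to 243 CPM in GP libraries at 24 h. A list of 12 myeloid and dendritic cell genes summed to 243 to 429 CPM in MCC+GP CD69-hi, where 1 of them was at 0, and to 55.5 to 154 CPM in GP libraries at 1 h. Their part in the results was not tested beyond a fit that holds the B cell level as a covariate. Of the NP libraries, the first of 6 h had 432 TMM CPM of the early response gene Egr1 beside 7.04 in the other, and the first of 24 h had 121 beside 4.52 and 4.86. Without both libraries the rule finds 222 genes, 221 of them among the 225.

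In resting cells the members covered a range from 5.23 to 266 CPM over the NP libraries, with a median of 25.4 CPM and quartiles of 11.95 and 54.8 CPM. The highest by this count was Zfp740 (chr15:102203506-102215610 in the RefSeq annotation of GRCm38, the mm10 build), with 216, 233 and 225 TMM CPM in the NP libraries of 1 h and 297, 282 and 249 in those of 24 h. The members just inside the limit were Zfp97 at 5.23, Zfp873 at 5.398 and Zfp365 at 5.42 CPM, and those just outside were Zfp963 at 4.98, Zfp316 at 4.86 and Zfp970 at 4.69 CPM. Per transcript length, in the units of the deposited table of length-scaled values, the highest in GP cells were Zfp740 at 1.49, Zfp592 at 1.36, Zfp207 at 1.04, Zfp106 at 0.976, Zfp638 at 0.960 and Zfp871 at 0.753. These leaders include genes outside the KRAB class: Zfp207 encodes BuGZ, a microtubule-binding protein that also acts in splicing, Zfp106 and Zfp638 encode RNA-binding proteins, and Zfp592 encodes a partner of the chromatin reader Zmynd8.

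Summed over the 225 members, the Zfp level was lower in both kinds of CD69-high cells than in GP cells. The sum was 6528 ± 142 TMM CPM in MCC+GP CD69-hi and 6781 ± 325 in MCC CD69-hi cells at 1 h. At that time it was 8167 ± 141 in MCC+GP CD69-lo, 8158 ± 101 in MCC CD69-lo, 8817 ± 312 in GP and 8849 ± 171 in NP cells (SD, n = 3 each). At 6 h it was 8795 ± 104 in MCC+GP CD69-hi and 8782 ± 475 in MCC CD69-hi (n = 3 each), against 9491 and 9513 in the GP libraries. It was 8155 ± 365 in MCC+GP CD69-lo cells (n = 3), and 8573 and 8789 in the MCC CD69-lo libraries of that time. At 6 h the CD69-low cells thus also lay below GP, and a sum below GP was not particular to CD69-high cells. At 24 h it was 7700 ± 174 in MCC+GP CD69-hi, 7832 ± 69.7 in MCC CD69-hi, 8141 ± 240 in MCC CD69-lo, 9597 ± 20.7 in GP and 9746 ± 77.5 in NP cells (n = 3 each). Without TMM scaling the sums were 6748 ± 277 CPM in MCC+GP CD69-hi and 8364 ± 375 in GP cells at 1 h, and 6501 ± 296 in MCC+GP CD69-hi and 10200 ± 129 in GP cells at 24 h (n = 3 each). They were 6727 ± 289 at 1 h and 6637 ± 195 at 24 h in MCC CD69-hi cells. Which of the 1 h and 24 h sums of CD69-high cells is the lower thus depends on the scaling. On the TMM scale all CD69-high libraries lay below all GP libraries at each time, and these sums follow the levels that chose the members, so they carry no test. In bulk RNA, fewer cells of a type and less RNA per cell cannot be told apart. Of the 225 members, 178 had a mean of 5 TMM CPM or more in MCC+GP CD69-hi cells of 1 h, 193 at 6 h and 202 at 24 h, against 206, 221 and 224 in GP cells.

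**Figure D1:**
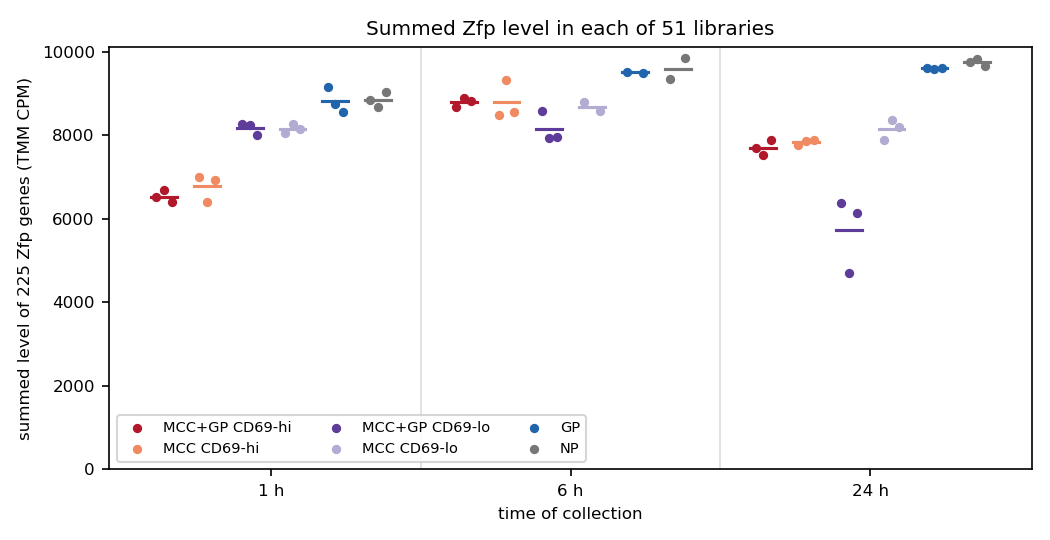
Summed TMM CPM of the 225 Zfp genes in each library (points) with the group mean (bar), by sorting phenotype within each time of collection. CD69-high cells at 1 h sit between 6397 and 7001, below every GP library of that time at 8544 to 9157, and the 3 shallow MCC+GP CD69-lo libraries of 24 h lie lowest.

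Cells that had met the agonist and were CD69-high had lower levels of many members and higher levels of few. In MCC+GP CD69-hi against GP cells, 93 members were called lower and 11 higher at 1 h, 85 lower and 29 higher at 6 h, and 98 lower and 30 higher at 24 h. The lower share was 41.3% of members at 1 h, against 20.1% of all genes tested and 33.4% of the 9738 genes that also averaged at least 5 CPM over NP, which were chosen by the same level. It was 37.8% of members at 6 h, against 23.2% and 34.4%, and 43.6% at 24 h, against 29.0% and 34.1%. The lower share at 6 h is thus near that of the NP-level genes. The higher share was 4.89% of members at 1 h, against 13.7% of all genes and 10.3% of the NP-level genes, 12.9% at 6 h, against 23.5% and 32.0%, and 13.3% at 24 h, against 29.5% and 40.4%. The median log2 fold change of members was -0.62 at 1 h, -0.30 at 6 h and -0.42 at 24 h, beside -0.09, 0.00 and -0.15 over all genes tested and -0.35, -0.05 and 0.13 over the NP-level genes. At 1 h the members' median was -0.37 with RLE factors, where that of all genes was 0.11. It was -0.37 with DESeq2 (0.00 over its 34923 rows) and -0.33 with the compared groups alone (-0.01 over its 10481 genes). Relative to all genes the values with TMM are a difference in medians of -0.52, -0.30 and -0.27. With RLE in place of TMM factors the count at 1 h was 53 lower and 17 higher, 24.3% of its calls being higher against 10.6% with TMM, and a fit on the compared groups alone called 30 lower and 10 higher there.

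**Figure D2:**
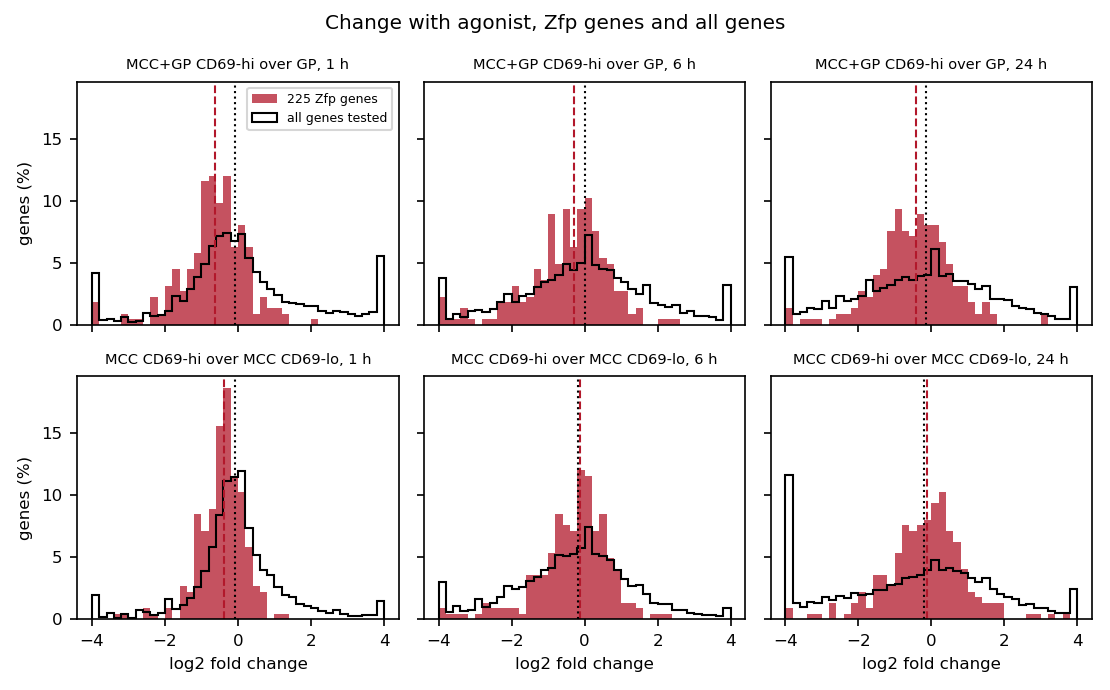
Share of genes in bins of log2 fold change for the 225 Zfp genes (red) and all 17211 genes tested (black outline), with MCC+GP CD69-hi over GP in the upper row and MCC CD69-hi over MCC CD69-lo in the lower row, at 1, 6 and 24 h. Dashed red and dotted black lines are the medians, and genes beyond the axis are in the outermost bins; the Zfp median in the upper row lies at -0.62, -0.30 and -0.42.

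Over the 3 times, 34 members were lower at each, 30 were lower at 1 h and not called later, 28 were lower at 6 and 24 h, and 20 were lower at 24 h alone. In the other direction, 16 were higher at 6 and 24 h and 3 at each time. No call was made at any time for 37 members, among them Zfp335, a regulator needed for naive T cell maturation in mice. It had a log2 fold change of -0.23 ± 0.18 at 1 h, 0.04 ± 0.19 at 6 h and -0.06 ± 0.17 at 24 h (SE). A missed call does not show that a gene stayed level. The shares of all genes with these patterns over time were not computed, so the counts describe the members and do not set them apart.

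Of the 5 members on a list of KRAB repressors, 3 were lower at 1 h, 2 at 6 h and 4 at 24 h, and none was higher. The shares of all genes that were lower were 20.1%, 23.2% and 29.0% at these times, and those of the NP-level genes 33.4%, 34.4% and 34.1%. Zfp445, a KRAB protein that maintains imprints, had 62.5, 80 and 87.9 TMM CPM in MCC+GP CD69-hi libraries and 149, 129.5 and 140.3 in GP libraries at 24 h. The groups do not overlap, and the log2 fold change was -0.86 ± 0.16 (SE, adjusted p = 7.11e-06). At 1 and 6 h it was -0.23 ± 0.18 and -0.04 ± 0.18 and not called. Zfp809, which silences murine leukaemia virus DNA, was lower at 1 h, with 27.7, 9.3 and 14.3 TMM CPM in MCC+GP CD69-hi and 31.4, 33.2 and 34.7 in GP libraries and a log2 fold change of -0.97 ± 0.27 (SE, adjusted p = 0.0039). Zfp263, a protein with KRAB and SCAN domains, fell to 41.1, 46.1 and 43.6 TMM CPM in MCC+GP CD69-hi libraries of 24 h, against 92.7, 89.2 and 86.7 in GP libraries, a change of -1.04 ± 0.20 (SE, adjusted p = 1.43e-05). Zfp110 (NRIF, a partner of the p75 neurotrophin receptor) was lower at all 3 times, at -0.85 ± 0.19, -0.82 ± 0.18 and -0.87 ± 0.17, and its relative Zfp369 (NRIF2) at -0.99 ± 0.28, -0.60 ± 0.24 and -1.27 ± 0.22. The 1 h call of Zfp809 was lost with the compared groups alone (-0.68, adjusted p = 0.186), without MCC+GP CD69-hi replicate 2 (-0.55, adjusted p = 0.149) and without MCC+GP CD69-hi replicate 3 (-0.72, adjusted p = 0.0779). That of Zfp369 was lost with the compared groups alone (-0.70, adjusted p = 0.149), without MCC+GP CD69-hi replicate 1 (-0.60, adjusted p = 0.124) and without MCC+GP CD69-hi replicate 3 (-0.77, adjusted p = 0.0693). Its 6 h call was lost without a filter on low counts (-0.59, adjusted p = 0.0587), without GP replicate 1 (-0.41, adjusted p = 0.31), without MCC+GP CD69-hi replicate 1 (-0.64, adjusted p = 0.0522) and without MCC+GP CD69-hi replicate 2 (-0.59, adjusted p = 0.0766).

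The 10 members listed for RNA and ribosomes gave 1 higher and 1 lower at 1 h, 6 higher and 1 lower at 6 h, and 6 higher and 2 lower at 24 h. The shares of all genes that were higher were 13.7%, 23.5% and 29.5% at these times, and those of the NP-level genes 10.3%, 32.0% and 40.4%. Zfp598, a ubiquitin ligase that senses collided ribosomes, had 254, 243 and 251 TMM CPM in MCC+GP CD69-hi libraries of 6 h and 124 and 111 in GP libraries. All CD69-high libraries lay above the GP libraries, and the change was 1.08 ± 0.16 (SE, adjusted p = 9.64e-08). Zfp106 had 408, 412 and 402 TMM CPM in MCC+GP CD69-hi libraries and 142 and 149 in GP libraries at 6 h, a change of 1.49 ± 0.18 (SE, adjusted p = 1.14e-10), and 1.26 ± 0.15 at 24 h. Zfp706, a small single-finger protein, was called at 6 h, at 0.78 ± 0.20, and at 24 h, at 1.45 ± 0.17 (SE, adjusted p = 1.69e-10). Zfp622, a factor of late large ribosomal subunit maturation, was higher by 0.63 ± 0.23 (SE, adjusted p = 0.0199) at 6 h and 0.58 ± 0.20 (SE, adjusted p = 0.0129) at 24 h. Zfp207 was higher by 0.76 ± 0.18 (SE, adjusted p = 3.59e-04) and 0.43 ± 0.16 (SE, adjusted p = 0.0158) at the same times. The 6 h call of Zfp622 was lost without GP replicate 1 (0.50, adjusted p = 0.194), without MCC+GP CD69-hi replicate 2 (0.54, adjusted p = 0.0771) and without MCC+GP CD69-hi replicate 3 (0.58, adjusted p = 0.0605). Its 24 h call was lost with the B cell covariate (0.31, adjusted p = 0.252), with DESeq2 (0.41, adjusted p = 0.0661), with RLE factors (0.41, adjusted p = 0.0629) and without MCC+GP CD69-hi replicate 1 (0.46, adjusted p = 0.0794). The 24 h call of Zfp207 was lost with the B cell covariate (0.29, adjusted p = 0.182), with DESeq2 (0.27, adjusted p = 0.12), with RLE factors (0.27, adjusted p = 0.121), without GP replicate 1 (0.29, adjusted p = 0.152), without MCC+GP CD69-hi replicate 1 (0.40, adjusted p = 0.0537) and without MCC+GP CD69-hi replicate 3 (0.39, adjusted p = 0.0575).

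Zfp330, a nucleolar protein, was the member of this list that was called at each time and the one with the largest rise at 1 h among members called without overlap of libraries. It had 157, 134 and 131 TMM CPM in MCC+GP CD69-hi libraries and 50.7, 65.5 and 55.4 in GP libraries at 1 h. The changes were 1.29 ± 0.17 (SE, adjusted p = 2.40e-08) at 1 h, 1.54 ± 0.19 (SE, adjusted p = 4.78e-10) at 6 h and 0.96 ± 0.16 (SE, adjusted p = 1.15e-06) at 24 h. Zfp326, a subunit of the DBIRD complex that links transcript elongation and splicing, was lower at 6 h, with a change of -0.91 ± 0.21 (SE, adjusted p = 2.62e-04), and at 24 h, by -0.57 ± 0.19 (SE, adjusted p = 0.00954). Zfp638, which recruits the HUSH silencing complex to unintegrated retroviral DNA, was called lower at 1 h alone, with a change of -0.55 ± 0.18 (SE, adjusted p = 0.0125). That call was lost with DESeq2 (-0.30, adjusted p = 0.0542), with RLE factors (-0.30, adjusted p = 0.192), without a filter on low counts (-0.44, adjusted p = 0.0778), with the compared groups alone (-0.27, adjusted p = 0.298), without GP replicate 1 (-0.40, adjusted p = 0.126), without GP replicate 2 (-0.39, adjusted p = 0.132), without MCC+GP CD69-hi replicate 1 (-0.32, adjusted p = 0.229) and without MCC+GP CD69-hi replicate 3 (-0.38, adjusted p = 0.164). The 24 h call of Zfp326 was lost with the B cell covariate (-0.48, adjusted p = 0.0652).

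Among the 13 members listed as regulators without KRAB, 8 were lower and 1 higher at 1 h, 4 lower and 2 higher at 6 h, and 6 lower and 1 higher at 24 h, beside the same shares of all genes and of the NP-level genes as given for the lists above. Zfp592 and Zfp687, partners of Zmynd8, were lower at all times, with a change of -1.07 ± 0.15 (SE, adjusted p = 1.19e-08) for Zfp687 and -0.96 ± 0.17 (SE, adjusted p = 2.42e-06) for Zfp592 at 24 h. Zfp592 had 136, 131 and 122 TMM CPM in MCC+GP CD69-hi libraries and 250.3, 259 and 244 in GP libraries at that time. Zfp292, a large multi-finger factor, had 88.2, 85.8 and 97.3 TMM CPM in MCC+GP CD69-hi libraries and 212, 187 and 199.6 in GP libraries at 24 h, with changes of -0.77 ± 0.18, -0.83 ± 0.18 and -1.14 ± 0.17 over the 3 times. Zfp91, a ubiquitin ligase of the non-canonical NF-kB pathway, was higher at 6 h, by 0.66 ± 0.16 (SE, adjusted p = 4.34e-04). Zfp451, a SUMO ligase, was lower at 1 h, with a change of -0.96 ± 0.18 (SE, adjusted p = 4.16e-05), and higher at 6 h, by 0.58 ± 0.17 (SE, adjusted p = 0.0035). Zfp410, an activator of Chd4, was not called at 6 h and was higher at 24 h, by 0.56 ± 0.16 (SE, adjusted p = 0.00272). Chd4 itself changed by 1.35 ± 0.21 (SE, adjusted p = 2.06e-07) at 6 h and 0.99 ± 0.18 (SE, adjusted p = 4.13e-06) at 24 h. In MCC CD69-hi cells of 6 h against 1 h, Zfp410 was called lower while Chd4 rose by 0.70 ± 0.18 (SE). A link between these genes was not tested. Calls were lost for Zfp292 at 1 h with the compared groups alone (-0.49, adjusted p = 0.0674) and without MCC+GP CD69-hi replicate 3 (-0.49, adjusted p = 0.0528). They were also lost for Zfp451 at 6 h without GP replicate 2 (0.52, adjusted p = 0.0541) and for Zfp410 at 24 h with the B cell covariate (0.43, adjusted p = 0.0534).

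Zfp318, which allows IgD expression in B cells, was called higher at 1 h in MCC+GP CD69-hi cells, with 41.5, 130.3 and 97.8 TMM CPM in MCC+GP CD69-hi and 47.6, 43.2 and 47.9 in GP libraries, a change of 0.96 ± 0.25 (SE, adjusted p = 0.00264). The groups overlap through 1 library. The B cell list was about 1544 CPM in MCC+GP CD69-hi and 245 CPM in GP cells at that time, and in a fit that takes the B cell level as a covariate the change was 0.35, adjusted p = 0.38. The B cell part in the level of Zfp318 was not tested further.

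The largest falls were in members for which no role is given here. These falls are against GP cells of the same time, and GP levels moved as well. Of the 98 members lower at 24 h, 27 were called higher in GP cells of 24 h against 1 h. Zfp945, Zfp831, Zfp287, Zfp467, Zfp652 and Zfp217 were among them. Both contrasts use the GP libraries of 24 h, and this overlap was not computed over all genes. Zfp945 (chr17:22846697-22867309) had 0.725, 0.194 and 0.639 TMM CPM in MCC+GP CD69-hi libraries of 24 h and 77.2, 68.8 and 81.6 in GP libraries. No other member fell as far at that time: the log2 fold change was -7.01 ± 0.36 (SE, adjusted p = 2.33e-24), after -4.56 ± 0.31 at 6 h and -1.43 ± 0.30 at 1 h. Its level in MCC CD69-hi cells was 12.6, 24.5 and 14.5 TMM CPM at 1 h, 2.84, 3.61 and 3.45 at 6 h and 0.986, 0.306 and 0.136 at 24 h.

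Zfp831 (chr2:174598682-174710832) had 65, 53.8 and 76.7 TMM CPM in MCC+GP CD69-hi and 101, 101 and 93.4 in GP libraries at 1 h, a change of -0.59 ± 0.23. At 6 h it had 10.7, 4.62 and 4.09 TMM CPM in MCC+GP CD69-hi libraries, against 143 and 123 in GP libraries, a change of -4.40 ± 0.26 (SE, adjusted p = 6.49e-21). The fall held at 24 h at -3.87 ± 0.23 (SE, adjusted p = 5.52e-21). Zfp287 (chr11:62692444-62731912) had 5.07, 5.43 and 6.52 TMM CPM in MCC+GP CD69-hi libraries and 94.1, 97.2 and 84.8 in GP libraries at 24 h, with a change of -4.01 ± 0.28 (SE, adjusted p = 4.60e-19). Zfp467 (chr6:48427692-48445992) changed by -4.74 ± 0.52 (SE, adjusted p = 1.77e-11) at 6 h and -3.42 ± 0.42 (SE, adjusted p = 3.62e-10) at 24 h, and Zfp949 (chr9:88548020-88571086) by -3.75 ± 0.36 (SE, adjusted p = 1.35e-13) and -2.31 ± 0.30 (SE, adjusted p = 2.29e-09).

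Zfp652 (chr11:95749067-95764715) declined at each time, with changes of -1.25 ± 0.18, -2.0 ± 0.18 and -3.22 ± 0.17 (SE, adjusted p = 1.21e-23). Its libraries of 24 h had 23.6, 24.2 and 28.5 TMM CPM in MCC+GP CD69-hi cells and 236, 210.5 and 266 in GP cells. Zfp217 (chr2:170108643-170151677), a corepressor-associated factor, had 23.8, 28.6 and 33.5 TMM CPM in MCC+GP CD69-hi libraries and 159 and 157 in GP libraries at 6 h. It changed by -0.74 ± 0.22 at 1 h, -2.45 ± 0.20 (SE, adjusted p = 1.96e-16) at 6 h and -1.62 ± 0.17 at 24 h. Zfp740, the member with the highest mean over the NP libraries, was lower at each time, at -1.61 ± 0.16, -1.31 ± 0.16 and -1.38 ± 0.15. Its 1 h libraries had 62.9, 51.7 and 96.1 TMM CPM in MCC+GP CD69-hi and 234, 218 and 197 in GP cells. Zfp260 changed by -1.38 ± 0.22, -2.25 ± 0.21 and -2.42 ± 0.19. The 1 h call of Zfp217 was lost with RLE factors (-0.49, adjusted p = 0.0695), with the compared groups alone (-0.46, adjusted p = 0.165), without GP replicate 1 (-0.58, adjusted p = 0.0578), without MCC+GP CD69-hi replicate 1 (-0.57, adjusted p = 0.0739) and without MCC+GP CD69-hi replicate 2 (-0.48, adjusted p = 0.131).

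**Figure D3:**
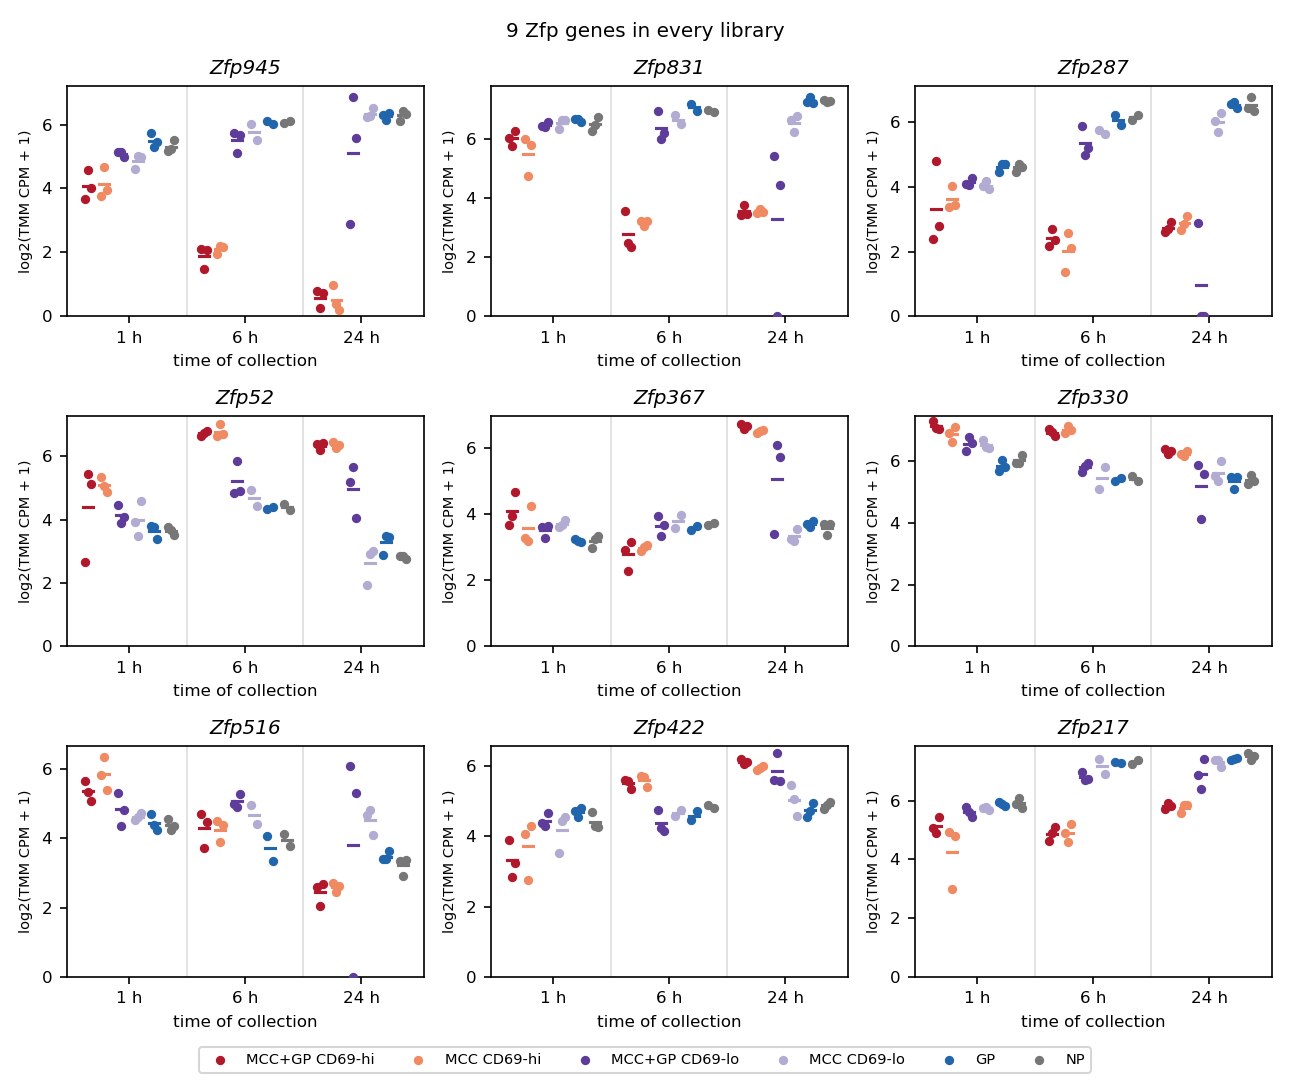
Level of 9 Zfp genes as log2(TMM CPM + 1) in every library (points) with the mean of the plotted values (bar), by sorting phenotype within each time. Zfp945, Zfp831 and Zfp287 part from GP and NP between 1 and 24 h in both CD69-high groups, Zfp52 lies above GP at 6 and 24 h, and Zfp367 rises at 24 h.

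At 1 h the shallow MCC+GP CD69-hi libraries limit how far a fall can be measured. Zfp873 and Zfp661 had no count in any of the 3 libraries, whereas GP libraries had 6.53, 5.01 and 6.86 TMM CPM of Zfp873 and 5.05, 6.5 and 3.79 of Zfp661. With a floor of 3 counts over the group (0.970 TMM CPM) they were at least 6.32-fold and at least 5.27-fold lower, with adjusted p = 1.15e-04 for Zfp873 and 1.59e-04 for Zfp661. Zfp637 and Zfp605 were at 0 as well and at least 4.11-fold and 3.80-fold lower. Setting these 4 at their bound left the median change of the members at -0.62. Among members with counts, Zfp81 had 2.13, 1.03 and 5.06 TMM CPM in MCC+GP CD69-hi libraries and 19.6, 25.2 and 22.9 in GP libraries, a change of -2.96 ± 0.40 (SE, adjusted p = 3.35e-08). At 6 h it had 32.4, 27.9 and 30 TMM CPM in MCC+GP CD69-hi and 24.6 and 24.2 in GP libraries, with a change of 0.30 ± 0.25 that was not called.

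Higher levels were led by Zfp52 and Zfp367. Zfp52 (chr17:21533725-21563362) had 99.4, 105 and 110.2 TMM CPM in MCC+GP CD69-hi libraries of 6 h and 19.4 and 20.3 in GP libraries, and 82.3, 72.3 and 84.1 TMM CPM in MCC+GP CD69-hi and 6.33, 10.3 and 10.1 in GP libraries at 24 h. The changes were 2.40 ± 0.31 (SE, adjusted p = 3.58e-09) at 6 h and 3.15 ± 0.29 (SE, adjusted p = 4.90e-14) at 24 h. At 1 h it was called at 1.25 ± 0.34 (SE, adjusted p = 0.00336) while 1 of the MCC+GP CD69-hi libraries lay below the GP libraries. The 1 h call was lost with the B cell covariate (0.91, adjusted p = 0.0892), with the compared groups alone (1.52, adjusted p = 0.0533) and without MCC+GP CD69-hi replicate 2 (0.97, adjusted p = 0.0553). Zfp52 lies next to Zfp53, Zfp54 and Zfp51 in a cluster on chromosome 17. The neighbour Zfp53 (chr17:21488934-21533201) went the other way at 1 h, with 11.7, 16.5 and 16 TMM CPM in MCC+GP CD69-hi and 91, 77 and 63.4 in GP libraries and a change of -2.37 ± 0.29 (SE, adjusted p = 1.94e-09).

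Zfp367 (chr13:64133022-64153199) changed direction over time. It had 105, 94.6 and 100 TMM CPM in MCC+GP CD69-hi libraries and 11.9, 11.1 and 12.9 in GP libraries at 24 h, a change of 3.06 ± 0.25 (SE, adjusted p = 1.46e-16). At 6 h it was lower, at -0.83 ± 0.30 (SE, adjusted p = 0.018), with 6.61, 3.9 and 7.88 TMM CPM in MCC+GP CD69-hi and 10.5 and 11.5 in GP libraries. At 1 h it was called higher, at 1.07 ± 0.32 (SE, adjusted p = 0.00655), a call that was lost with the B cell covariate (0.80, adjusted p = 0.117) and without MCC+GP CD69-hi replicate 3 (0.80, adjusted p = 0.115). The 6 h call was lost without GP replicate 2 (-0.76, adjusted p = 0.113) and without MCC+GP CD69-hi replicate 2 (-0.62, adjusted p = 0.117).

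Other members rose at 6 h. Zfp827 had 96.5, 73.8 and 70.5 TMM CPM in MCC+GP CD69-hi libraries and 18.1 and 13.2 in GP libraries, a change of 2.36 ± 0.42 (SE, adjusted p = 8.28e-06), and 1.73 ± 0.35 at 24 h. Zfp783 had 69.8, 64.8 and 60.9 TMM CPM in MCC+GP CD69-hi and 15.1 and 13.9 in GP libraries at 6 h, a change of 2.17 ± 0.32 (SE, adjusted p = 4.92e-08). At 24 h the change of Zfp783 was 0.20 ± 0.26 and its groups overlapped. Zfp131 was called at each time, at 0.76 ± 0.19, 1.13 ± 0.21 and 0.72 ± 0.18.

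A set of members was called in opposite directions at different times. Zfp422 had 13.8, 6.2 and 8.43 TMM CPM in MCC+GP CD69-hi libraries and 25.7, 22.6 and 27.3 in GP libraries at 1 h. At 24 h it had 73.8, 65.7 and 68.6 TMM CPM in MCC+GP CD69-hi and 22.5, 25.4 and 30.3 in GP libraries. Its change was -1.42 ± 0.32 (SE, adjusted p = 4.00e-04) at 1 h and 1.41 ± 0.21 (SE, adjusted p = 7.62e-08) at 24 h. Zfp609, a partner of the cohesin loader, likewise changed by -1.08 ± 0.26 (SE, adjusted p = 0.00107) at 1 h, 1.11 ± 0.23 (SE, adjusted p = 4.16e-05) at 6 h and 0.82 ± 0.20 at 24 h. Zfp516, which activates Ucp1 in brown fat of mice, went the other way, with 50.1, 39.3 and 32.9 TMM CPM in MCC+GP CD69-hi and 25.3, 20 and 18.1 in GP libraries at 1 h. At 24 h it had 5.07, 3.1 and 5.37 TMM CPM in MCC+GP CD69-hi and 9.6, 9.59 and 11.3 in GP libraries. Its changes were 0.94 ± 0.30 (SE, adjusted p = 0.0111) and -1.14 ± 0.31 (SE, adjusted p = 0.00138). In the fit with the B cell covariate the 1 h value was 0.30, adjusted p = 0.593 and the 24 h value -0.67, adjusted p = 0.0894. The difference between the changes at 24 h and 1 h was tested itself and called for 85 members, 48 with a larger and 37 with a smaller log2 fold change at 24 h. These are 21.3% and 16.4% of members, below the 26.6% and 18.9% of all genes. Between 6 h and 1 h it was called for 45 with a larger and 25 with a smaller change at 6 h, 20.0% and 11.1% of members against 19.0% and 12.4% of all genes. Between 24 h and 6 h it was called for 19 with a larger and 25 with a smaller change at 24 h, 8.44% and 11.1% of members against 13.9% and 10.5% of all genes.

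The sort on CD69 within cells given MCC alone shares no library with the comparison against GP. In MCC CD69-hi against MCC CD69-lo cells, 43 members were lower and 3 higher at 1 h, 63 lower and 31 higher at 6 h, and 66 lower and 48 higher at 24 h. As shares of members these are 19.1% lower and 1.33% higher at 1 h, against 9.06% and 3.46% of all genes, 28.0% and 13.8% at 6 h, against 22.5% and 19.9%, and 29.3% and 21.3% at 24 h, against 32.6% and 29.1%. The lower share at 24 h is thus close to that of all genes. Shares of the NP-level genes were not computed for this sort, so these shares do not set the members apart from genes of like level. The members' median change was -0.38, -0.13 and -0.12 at 1, 6 and 24 h. Over all genes tested it was -0.07, -0.17 and -0.20, and over the NP-level genes -0.19, -0.04 and 0.27. The B cell list summed to 1573 ± 430 CPM in MCC CD69-hi and 1072 ± 873 CPM in MCC CD69-lo cells at 1 h, and to 59.9 ± 38.2 CPM in MCC CD69-hi and 514 ± 196 CPM in MCC CD69-lo cells at 24 h (SD, n = 3 each). At 24 h the myeloid and dendritic cell list summed to 53.3 ± 6.76 CPM in MCC CD69-hi and 361 ± 128 CPM in MCC CD69-lo cells, with 9 of 11 tested genes lower. A list of 9 CD8 T and NK cell genes summed to 20.0 ± 3.83 CPM in MCC CD69-hi and 111.4 ± 38.8 CPM in MCC CD69-lo cells, with 6 lower. The part of myeloid, CD8 T and NK cells in the members' changes was not tested. With RLE factors the 24 h counts were 81 lower and 30 higher, 27.0% of the calls being higher against 42.1% with TMM, and the members' median was -0.34 with RLE (-0.43 over all genes) against -0.12 with TMM (-0.20 over all genes). The compared groups alone gave 5 lower and 2 higher at 1 h, and leaving out MCC CD69-hi replicate 1 or 3 or MCC CD69-lo replicate 2 gave 29, 29 and 27 calls there in place of 46.

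Most members called in this sort at 6 and 24 h were also called against GP in the same direction. Of the 63 members lower in MCC CD69-hi at 6 h, 60 (95.2%) were among the 85 lower in MCC+GP CD69-hi, 70.6% of these, and of the 31 higher, 25 (80.6%) were among the 29 higher there, 86.2% of these. At 24 h 61 members were lower in both, 92.4% of 66 and 62.2% of 98, and 28 were higher in both, 58.3% of 48 and 93.3% of 30. At 1 h 32 members were lower in both, 74.4% of 43 and 34.4% of 93. No member was called in opposite directions by the 2 comparisons at the same time. The same overlaps were not computed over all genes, so they are not shown to be particular to the members. Zfp945 had 0.986, 0.306 and 0.136 TMM CPM in MCC CD69-hi and 73.7, 75.5 and 91.1 in MCC CD69-lo libraries at 24 h, a change of -7.32 ± 0.38 (SE, adjusted p = 3.46e-24). Zfp831 had 8.35, 7.37 and 8.33 TMM CPM in MCC CD69-hi and 110 and 90.5 in MCC CD69-lo libraries at 6 h, a change of -3.64 ± 0.25 (SE, adjusted p = 3.30e-18).

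Zfp52 had 86, 74.8 and 81.4 TMM CPM in MCC CD69-hi and 2.83, 6.48 and 7.12 in MCC CD69-lo libraries at 24 h, a change of 3.75 ± 0.35 (SE, adjusted p = 1.61e-13). Zfp367 changed by -0.89 ± 0.29 (SE, adjusted p = 0.00921) at 6 h and by 3.30 ± 0.28 (SE, adjusted p = 2.37e-15) at 24 h, the same order of directions as against GP. The 6 h call was lost without MCC CD69-lo replicate 2 (-0.66, adjusted p = 0.166). Zfp219 had 78, 71.9 and 69.8 TMM CPM in MCC CD69-hi and 10.4, 13.6 and 5.09 in MCC CD69-lo libraries, a change of 2.87 ± 0.29 (SE, adjusted p = 6.91e-13). Zfp516 was higher at 1 h, by 1.28 ± 0.28 (SE, adjusted p = 7.52e-04), and lower at 24 h, at -2.17 ± 0.32 (SE, adjusted p = 4.75e-08).

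Within MCC CD69-hi cells, from 1 to 6 h, 81 members were higher and 26 lower at 6 h, which is 36.0% and 11.6% of members against 22.2% and 18.5% of all genes and 33.6% and 23.5% of the NP-level genes. The median member was higher by 0.48 on the log2 scale, and the median of all genes was 0.00. With RLE factors these medians were 0.33 and -0.12. The members' median was 0.30 with DESeq2 (0.00 over its 34923 rows) and 0.29 with the compared groups alone (0.01 over its 11406 genes). Zfp930 had 21, 21.8 and 21.4 TMM CPM in MCC CD69-hi cells at 6 h and 3.15, 2.33 and 1.85 at 1 h, a change of 3.13 ± 0.40 (SE, adjusted p = 3.20e-09). Zfp831 was among the members that fell, with a change of -2.65 ± 0.25 (SE, adjusted p = 5.67e-13), with Zfp945 at -2.23 ± 0.33 (SE, adjusted p = 1.07e-07). From 6 to 24 h, 26 members were higher and 47 lower at 24 h, 11.6% and 20.9% of members against 21.3% and 16.9% of all genes. Shares of the NP-level genes were not computed between these times. Zfp367 had 86.7, 89.2 and 92.7 TMM CPM at 24 h and 6.4, 7.09 and 7.32 at 6 h, a change of 3.68 ± 0.26 (SE, adjusted p = 4.64e-18). Zfp281, a GC-box binding factor of pluripotent cells, had 90.5, 103 and 102 TMM CPM at 24 h and 266, 304 and 259 at 6 h, a change of -1.49 ± 0.19 (SE, adjusted p = 5.58e-09). B cell RNA also moved over these times, from a list sum of 1573 ± 430 CPM at 1 h through 684 ± 287 at 6 h to 59.9 ± 38.2 at 24 h (SD, n = 3 each). In the fit with this covariate 13 members were higher and 25 lower between 6 and 24 h, while the compared groups alone gave 31 higher and 90 lower.

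Cells that met no agonist also moved over time. In GP cells of 24 h against GP cells of 1 h, 49 members were higher and 20 lower, 21.8% and 8.89% of members against 10.5% and 12.4% of all genes and 15.9% and 19.5% of the NP-level genes. Zfp3 had 11.1, 13.1 and 13.2 TMM CPM in GP libraries of 24 h and 0.842, 0.928 and 1.99 in those of 1 h, a change of 3.28 ± 0.47 (SE, adjusted p = 1.57e-07). Zfp7 had 37, 38.4 and 32.7 TMM CPM in GP libraries of 24 h and 8, 8.72 and 8.67 in those of 1 h, a change of 2.08 ± 0.24 (SE, adjusted p = 5.15e-10). Both genes had every 24 h library above every 1 h library. Zfp217 had 167, 171 and 177 at 24 h and 61.3, 58.3 and 56 at 1 h, a change of 1.55 ± 0.18 (SE, adjusted p = 3.10e-10). Zfp287 rose by 1.95 ± 0.25 (SE, adjusted p = 6.09e-09) and Zfp606 by 2.10 ± 0.47 (SE, adjusted p = 5.23e-04).

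In the other direction, Zfp53 had 36.5, 33.1 and 31.6 TMM CPM in GP libraries of 24 h and 91, 77 and 63.4 in those of 1 h, a change of -1.19 ± 0.22 (SE, adjusted p = 2.24e-05). Zfp703 and Zfp281 changed by -1.06 ± 0.26 (SE, adjusted p = 0.00146) and -0.90 ± 0.19 (SE, adjusted p = 2.08e-04). NP libraries, which are not tested, had 196, 169 and 184 TMM CPM of Zfp217 at 24 h and 59, 67.4 and 52.9 at 1 h. They had 33.8, 32.4 and 33.3 TMM CPM of Zfp53 at 24 h and 87.1, 74.6 and 76.3 at 1 h. DESeq2 called 79 higher and 25 lower members in GP cells, and the compared groups alone 86 and 41.

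In CD69-low cells given MCC and GP, few members were called against GP cells, but the members' median was lower than that of all genes. It was -0.16 at 1 h and -0.28 at 6 h, beside -0.01 and 0.04 over all genes tested and -0.06 and -0.08 over the NP-level genes. At 6 h 177 of the 225 members had a change below 0, beside 142 in MCC+GP CD69-hi against GP, where the median was -0.30. Changes below 0 were not counted over all genes, so these counts do not set the members apart. Members called lower at 6 h were 9 in CD69-low and 85 in CD69-high cells. The B cell list summed to 936 ± 508 CPM in MCC+GP CD69-lo and 245 ± 68.4 CPM in GP cells at 1 h, and to 856 ± 243 CPM in MCC+GP CD69-lo and 147 to 241 CPM in GP libraries at 6 h, with 6 of 10 genes higher at each time. The myeloid and dendritic cell list summed to 327 ± 119 CPM in MCC+GP CD69-lo and 40.7 to 60.1 CPM in GP libraries at 6 h, with 6 of 11 tested genes higher, and the part of myeloid cells in the members' values was not tested. At 1 h only Zfp330 and Zfp131 were called, both higher, at 0.72 ± 0.16 (SE, adjusted p = 0.00517) and 0.69 ± 0.18 (SE, adjusted p = 0.0235), 2 members or 0.889% against 1.99% of all genes, and none lower against 0.186%. DESeq2 called 3 higher and 8 lower, and 24 members had an unadjusted p below 0.05. Without GP replicate 1 no member was called, and without MCC+GP CD69-lo replicate 3 only 1. The call of Zfp330 was lost without GP replicate 1 (0.66, adjusted p = 0.0651). That of Zfp131 was lost without GP replicate 1 (0.64, adjusted p = 0.145), without GP replicate 3 (0.63, adjusted p = 0.124), without MCC+GP CD69-lo replicate 2 (0.52, adjusted p = 0.184) and without MCC+GP CD69-lo replicate 3 (0.72, adjusted p = 0.0547). At 6 h, 9 members were lower and 2 higher, 4.0% and 0.889% against 2.92% and 7.41% of all genes, and with a block by plate round 15 were lower and 3 higher. Shares of the NP-level genes were not computed for CD69-low cells against GP. Zfp740 had 212, 162 and 176 TMM CPM in MCC+GP CD69-lo and 283 and 279 in GP libraries at 6 h, a change of -0.62 ± 0.16 (SE, adjusted p = 0.00525). Zfp516 had 31, 29.2 and 38.4 TMM CPM in MCC+GP CD69-lo and 15.9 and 9.28 in GP libraries, a change of 1.40 ± 0.32 (SE, adjusted p = 0.00165). The 6 h count rests on single libraries: it was 2 without the first and 0 without the second GP library, 5 without MCC+GP CD69-lo replicate 2 or replicate 3, and 44 with DESeq2. The call of Zfp740 was lost without GP replicate 2 (-0.63, adjusted p = 0.0603), and that of Zfp516 with the B cell covariate (0.89, adjusted p = 0.119) and without GP replicate 2 (1.05, adjusted p = 0.155).

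At 24 h the MCC+GP CD69-lo cells were not tested. They held 5735 ± 900 TMM CPM of the members, or 8661 ± 1017 without TMM scaling (SD, n = 3), and 178 members averaged at least 5 TMM CPM. Their lists of other cells stood at 1621 ± 277 CPM for B cells and 2331 ± 559 CPM for myeloid and dendritic cells, beside 4982 ± 2004 CPM for the T cell list. Zfp945 had 6.39, 116 and 46.9 TMM CPM in them.

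Adding GP to MCC was not followed by a called change in any member. Over the mean of 3 times, with MCC+GP CD69-hi set against MCC CD69-hi cells, 0 of 225 members were called by edgeR and 0 by DESeq2, against 0.0116% of all genes (2 genes), and 24 members had an unadjusted p below 0.05. The median change of members was -0.01. At 24 h Zfp945 had 0.519 ± 0.285 TMM CPM in MCC+GP CD69-hi and 0.476 ± 0.449 in MCC CD69-hi cells. Zfp367 had 100 ± 5.39 in MCC+GP CD69-hi and 89.5 ± 2.98 in MCC CD69-hi cells, and Zfp52 had 79.5 ± 6.37 in MCC+GP CD69-hi and 80.7 ± 5.65 in MCC CD69-hi (SD, n = 3 each). The change of Zfp52 over the mean of times was -0.12 ± 0.16 (SE, adjusted p = 0.971), that of Zfp740 -0.01 ± 0.09 (SE, adjusted p = 1) and that of Zfp831 0.01 ± 0.16 (SE, adjusted p = 1).

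In the genome the members stand in clusters. By RefSeq positions on GRCm38, 133 of the 225 lie in 31 clusters, defined as at least 3 numbered Zfp genes with gaps of at most 500 kb, and 92 lie outside. Chromosome 7 holds 56 members, chromosome 17 holds 29 and chromosome 13 holds 18. Clustered members were lower in GP cells of 1 h, with a median of 16.9 TMM CPM, against 36.5 TMM CPM outside. In MCC+GP CD69-hi against GP, 52 of 133 clustered members were lower and 1 higher at 1 h, against 41 and 10 of 92 outside. At 6 h the counts were 52 lower and 12 higher in clusters, against 33 and 17 outside, and at 24 h 61 and 12, against 37 and 18. The lower shares were thus 39.1% in clusters and 44.6% outside at 1 h, and 45.9% and 40.2% at 24 h, while the higher shares were 0.752% and 10.9% at 1 h and 9.02% and 19.6% at 24 h. No test of this split was run, and the levels of the 2 sets differ.

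Neighbours within a cluster did not move as one. The cluster at chr17:21008941-23599755 holds 23 numbered Zfp genes and 16 members, of which 8 were lower and 1 higher at each time, Zfp945 being the lowest and Zfp52 the highest of all members at 24 h. The cluster at chr13:66670274-67827000 holds 11 members, with 6 lower and 0 higher at 1 h, 5 and 0 at 6 h, and 5 and 1 at 24 h. The cluster at chr7:29768552-30169775 also holds 11, with 2 lower and 0 higher at 1 h, 4 and 2 at 6 h, and 3 and 1 at 24 h. The cluster at chr6:47815536-48621548 holds 9 members, with 5 lower at each time and 1 higher at 6 and 24 h. Zfp467 fell there as given above and Zfp783 rose at 6 h. Zfp282 was lower at 1 h, at -1.08 ± 0.28 (SE, adjusted p = 0.00238), and higher at 24 h, at 0.88 ± 0.20 (SE, adjusted p = 1.47e-04), the 1 h call being lost with the compared groups alone (-0.80, adjusted p = 0.118). The cluster at chr17:32765496-33631716 holds 8 members, 6 of them lower at 1 h, Zfp81 among them, 5 at 6 h and 4 at 24 h, and none higher. Of all members, 41.3%, 37.8% and 43.6% were lower at 1, 6 and 24 h. The shares were 20.1%, 23.2% and 29.0% of all genes and 33.4%, 34.4% and 34.1% of the NP-level genes. No cluster was tested, so these counts do not set a cluster apart.

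**Figure D4:**
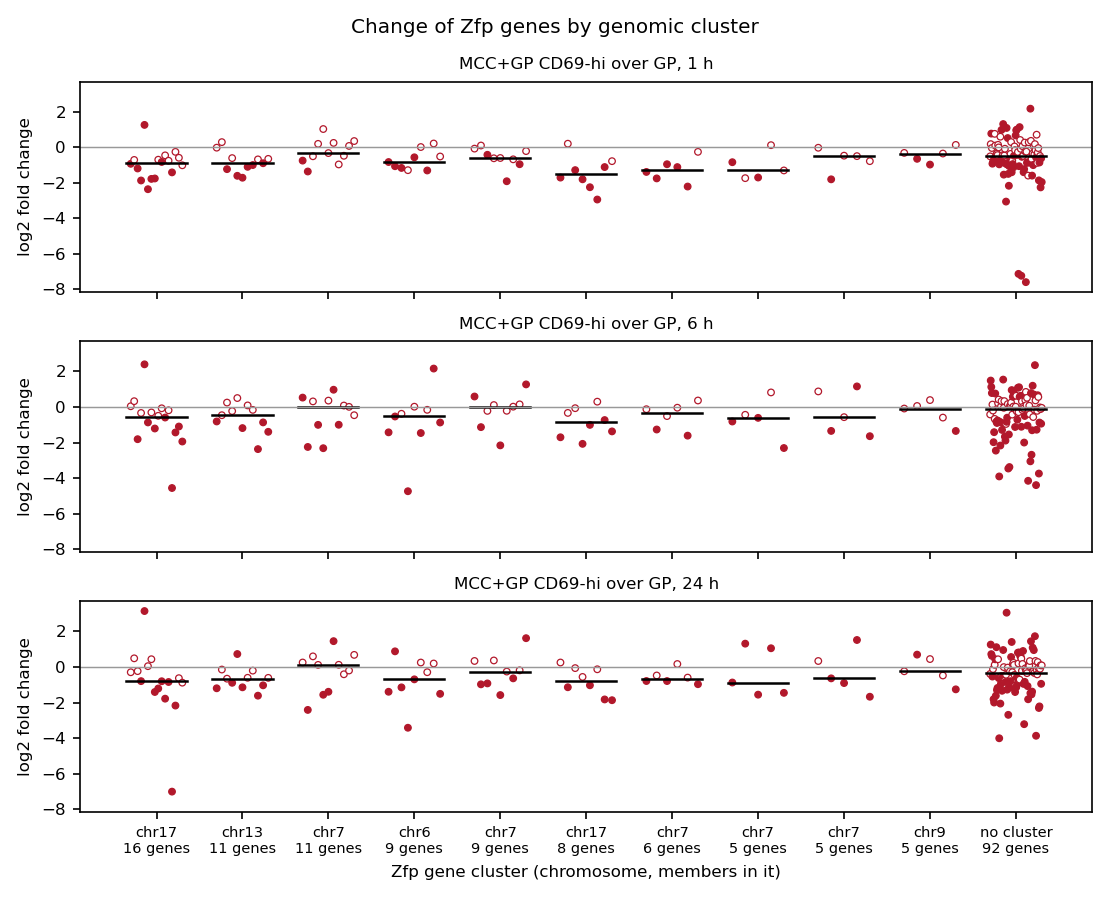
Log2 fold change of MCC+GP CD69-hi over GP at 1, 6 and 24 h for each Zfp member (points, filled where called) in the 10 clusters with at least 5 members and for the 92 members in no cluster, with the median as a line. In the largest cluster, on chromosome 17, Zfp945 reaches -7.01 and Zfp52 3.15 at 24 h.

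The proteins that KRAB zinc fingers recruit were measured beside the members, in a list of 26 genes of the KAP1 corepressor pathway, all 26 tested. In MCC+GP CD69-hi against GP, 2 were higher and 9 lower at 1 h, 14 higher and 9 lower at 6 h, and 17 higher and 6 lower at 24 h, with medians of -0.35, 0.55 and 1.10. Beside these stand 13.7% higher and 20.1% lower of all genes at 1 h, 23.5% and 23.2% at 6 h, and 29.5% and 29.0% at 24 h. Of the NP-level genes, 10.3% were higher and 33.4% lower at 1 h, 32.0% and 34.4% at 6 h, and 40.4% and 34.1% at 24 h. Trim28, which encodes KAP1, had 879 ± 71.6 TMM CPM in MCC+GP CD69-hi and 210.2 ± 11 in GP cells at 24 h (SD, n = 3 each), a change of 2.06 ± 0.14 (SE, adjusted p = 6.94e-19). Setdb1 had 161 ± 12.6 TMM CPM in MCC+GP CD69-hi and 84.7 ± 4.46 in GP cells, a change of 0.93 ± 0.17 (SE, adjusted p = 6.10e-06). The maintenance methyltransferase Dnmt1 was lower at 6 h, with a change of -0.95 ± 0.16 (SE, adjusted p = 1.66e-06), and higher at 24 h, by 2.27 ± 0.15 (SE, adjusted p = 8.16e-20). Its partner Uhrf1 had 897 ± 52.5 TMM CPM in MCC+GP CD69-hi and 4.52 ± 0.284 in GP cells at 24 h. Both are also known as genes of dividing cells.

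Not all of this list rose. Chd3, a remodeller subunit, had 254 ± 4.42 TMM CPM in MCC+GP CD69-hi and 872 ± 88.1 in GP cells at 24 h, a change of -1.78 ± 0.16 (SE, adjusted p = 2.69e-14). Atf7ip, the partner that stabilizes SETDB1, changed by -1.74 ± 0.15 (SE, adjusted p = 6.91e-15). Fam208a, the TASOR subunit of the HUSH complex, changed by -1.42 ± 0.15 (SE, adjusted p = 1.66e-12), Pias1 by -1.18 ± 0.15 (SE, adjusted p = 9.42e-10) and Daxx by -0.86 ± 0.21 (SE, adjusted p = 5.43e-04). The same list in MCC CD69-hi against MCC CD69-lo had 18 higher and 6 lower at 24 h, against 29.1% and 32.6% of all genes, and none was called between the CD69-high groups. Shares of the NP-level genes were not computed for that sort. In GP cells of 24 h against 1 h the list had 4 higher and 3 lower, against 10.5% and 12.4% of all genes and 15.9% and 19.5% of the NP-level genes.

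**Figure D5:**
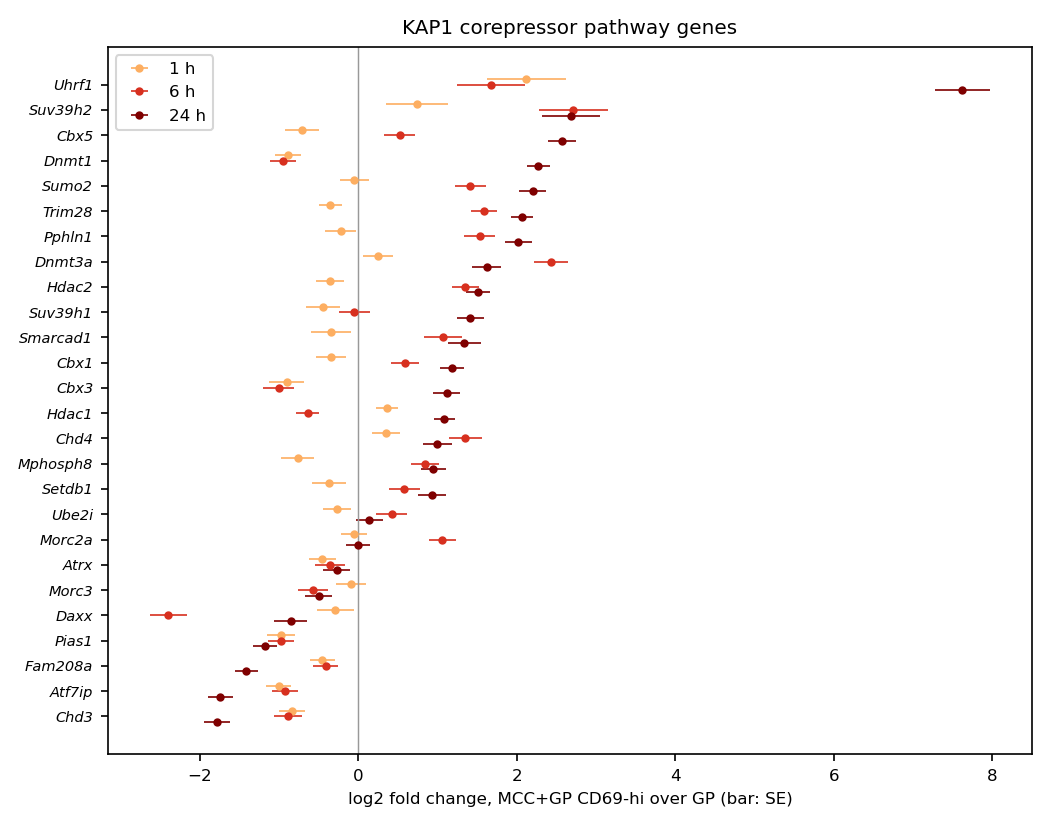
Log2 fold change of MCC+GP CD69-hi over GP for 26 genes of the KAP1 corepressor pathway at 1, 6 and 24 h, with bars for the SE, ordered by the value at 24 h. Most genes lie right of 0 at 24 h, with Trim28 at 2.06, while Chd3 and Atf7ip lie at -1.78 and -1.74.

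The 138 numbered Zfp genes below the NP level gave a further comparison. Of these 84 could be tested, and in MCC+GP CD69-hi against GP 8 were lower and 9 higher at 1 h, 11 and 9 at 6 h, and 10 and 15 at 24 h. Their median change was -0.10 at 1 h, -0.49 at 6 h and 0.07 at 24 h, beside -0.62, -0.30 and -0.42 for the members, so that at 6 h the lower-level genes had the lower median. The 2 sets were split by level in resting cells, and no test was made.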

How the data were processed

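Polyadenylated RNA of sorted lymph node T cells was sequenced in 51 libraries of 18 groups. Per the submitters' processing notes, bcl2fastq 2.20, STAR 2.6.1c and HTSeq 0.9.1 were used on the mm10 build, and the authors deposited whole-number counts per gene and a table of TPM values. The deposited TPM columns sum to 9986 to 9996, so they served only to rank levels per length. HTSeq counting can lose or split reads of near-identical paralogs, and whether counting used strand is not given in the sources used here. Every column was assigned to a sample.

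Counts were fitted in edgeR 4.0.16 (limma 3.58.1, R 4.3.3) over all 51 libraries with 1 mean per group, TMM factors, filterByExpr (17211 genes) and the robust quasi-likelihood F test with Benjamini-Hochberg adjustment at 0.05. The script was tested on simulated data. Members and gene lists were chosen with earlier results of these data known. Named genes are members in a role list, up to 6 lower and 6 higher members per comparison with the largest change past the threshold, no overlap between libraries and at least 5 CPM in a group mean, the 6 highest per length, the 3 just inside and outside the limit, and KAP1 pathway genes. Others named were chosen after their values were seen.

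Alternatives were RLE factors, no filter, the compared groups alone, DESeq2 1.42.0 (with a local-regression dispersion trend), a B cell RNA covariate, a replicate block by plate round and each library left out in turn (40 fits, which kept the genes and dispersion of the complete fit). Choosing members on 6 NP libraries was added after seeing the data. Plate rounds were read from wells in the titles. Deviations of same-round libraries correlated at 0.102 to 0.682 over 4535 genes in the comparisons with 3 pairs. In those with 2 pairs they correlated at 0.057 to 0.505. Libraries of a round were thus alike to a degree that varied. The main fit, which gave the SE and calls of the Results, had no term for the round, and the block by plate round was an alternative only. Pairs of replicates differed beyond counting noise (chi-square per degree of freedom 3.91 to 19.28), so none was a copy. Gene positions are RefSeq's for GRCm38. Protein and promoter sequences were not used here.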

Additional observations from a re-analysis of the deposited data

Results flagged for a closer look

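The change of MCC+GP CD69-hi over GP differed between times for members that were called in opposite directions at the 2 times. The difference itself was tested in edgeR with adjustment over all 17211 genes, and each value is the later log2 fold change minus the earlier with its SE. For 24 h minus 1 h, the change was more positive at the later time for Zfp266 (1.36 ± 0.23, adjusted p = 2.29e-06), Zfp282 (1.96 ± 0.35, adjusted p = 4.30e-06) and Zfp422 (2.83 ± 0.38, adjusted p = 9.55e-09). The same held for Zfp609 (1.89 ± 0.33, adjusted p = 3.01e-06) and Zfp65 (2.35 ± 0.46, adjusted p = 2.58e-05). For 24 h minus 1 h, the change was more negative at the later time for Zfp513 (-1.81 ± 0.32, adjusted p = 4.44e-06), Zfp516 (-2.08 ± 0.43, adjusted p = 6.31e-05) and Zfp523 (-1.57 ± 0.40, adjusted p = 0.00103). The same held for Zfp704 (-3.63 ± 1.01, adjusted p = 0.00253). For 6 h minus 1 h, the change was more positive at the later time for Zfp146 (1.30 ± 0.24, adjusted p = 1.99e-05), Zfp422 (2.37 ± 0.40, adjusted p = 3.34e-06) and Zfp451 (1.54 ± 0.25, adjusted p = 1.46e-06). The same held for Zfp507 (1.25 ± 0.28, adjusted p = 3.26e-04) and Zfp609 (2.19 ± 0.35, adjusted p = 8.11e-07). For 6 h minus 1 h, the change was more negative at the later time for Zfp367 (-1.91 ± 0.44, adjusted p = 3.74e-04) and Zfp704 (-5.22 ± 1.09, adjusted p = 1.23e-04). For 24 h minus 6 h, the change was more positive at the later time for Zfp219 (1.94 ± 0.35, adjusted p = 1.83e-05), Zfp282 (1.42 ± 0.30, adjusted p = 2.75e-04) and Zfp367 (3.89 ± 0.38, adjusted p = 6.42e-12). The 1 h change of Zfp704 rests on 1 library. The MCC+GP CD69-hi libraries of 1 h had 0, 3.1 and 11.8 TMM CPM and GP libraries 2.1, 0.557 and 0.903. Without MCC+GP CD69-hi replicate 3 its 1 h log2 fold change was 0.55, adjusted p = 0.787. The 1 h values of Zfp516 and Zfp367 were also not called in the fit with the B cell covariate. The causes of these differences were not tested.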

How the results depend on the processing

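Of 165 values over the comparisons and alternatives, 145 kept their count of called members within 1.5 times, but fewer single calls held. Calls made under every alternative were 34 of 104, 79 of 114 and 97 of 128 in MCC+GP CD69-hi against GP at 1, 6 and 24 h, 7 of 46, 56 of 94 and 64 of 114 in MCC CD69-hi against MCC CD69-lo, 36 of 69 in GP over time, 67 of 107 and 28 of 73 in MCC CD69-hi over time, and 0 of 2 and 0 of 11 in MCC+GP CD69-lo against GP. RLE factors gave 29 calls in MCC CD69-hi against MCC CD69-lo at 1 h in place of 46. The replicate block by plate round gave 18 in MCC+GP CD69-lo against GP at 6 h in place of 11, and changed no other count by over 1.5 times, though it ended 9 calls in MCC+GP CD69-hi against GP at 1 h and 6 and 10 in MCC CD69-hi against MCC CD69-lo at 1 and 24 h. The B cell covariate gave 38 in MCC CD69-hi at 24 against 6 h in place of 73. The compared groups alone gave 40 in MCC+GP CD69-hi against GP at 1 h (104 before), 7 in MCC CD69-hi against MCC CD69-lo at 1 h, 6 in MCC+GP CD69-lo against GP at 6 h, 127 in GP at 24 against 1 h (69 before) and 121 in MCC CD69-hi at 24 against 6 h. DESeq2 gave 11 in MCC+GP CD69-lo against GP at 1 h (2 before), 44 at 6 h and 104 in GP at 24 against 1 h. Leaving out a library gave 0 to 3 and 0 to 16 in MCC+GP CD69-lo against GP at 1 and 6 h, and 27 to 36 in MCC CD69-hi against MCC CD69-lo at 1 h. The causes were not tested.

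Members chosen on 6 NP libraries, an alternative chosen after seeing the data, kept every count within 1.5 times. A change of sign was seen for Zfp318 in MCC CD69-hi at 24 against 6 h (-0.60, and 0.21 with the B cell covariate) and for Zfp619 in MCC CD69-hi against MCC CD69-lo at 24 h (-0.86, and 0.25 without MCC CD69-lo replicate 3). The 1 h comparisons rest on the shallowest CD69-high libraries, so low members there are limited by depth.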
